A study of Mus musculus with 15 samples.

Results

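The genes described here are 45 genes that copy DNA or prepare a cell to do so, taken by symbol from a table of 56832 genes counted in cultured mouse bone marrow mesenchymal stromal cells (MSCs). They cover the loading of the replicative helicase, its activation, the DNA polymerases, the sliding clamp and its loader, the single-strand binding protein, the joining of the lagging strand, the supply of nucleotides, the control of entry into S phase, and the chromatin factors that travel with the fork. All 45 were found, and all 45 passed the filter on low counts, together with 18263 genes in all. The study asked how loss of the taurine transporter TauT, the product of *Slc6a6*, changes MSCs. Bulk RNA-sequencing was carried out on MSC cultures from 16 week old C57BL/6J mice that were either wild-type (TauT+/+) or carried the global TauT knockout (TauT-/-), which removes the transporter from all tissues and not from MSCs alone. By their labels, 4 TauT+/+ and 4 TauT-/- libraries are male, and 3 TauT+/+ and 4 TauT-/- libraries are female, 15 in all. All groups shared the same culture on collagen at low oxygen in serum-containing medium and a magnetic sort for CD45- cells, as the design text of the series states it. The labels do not say whether each library came from a separate mouse, so p-values measure the spread between these libraries, which may in part be technical.

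Before a cell enters S phase, the origin recognition complex, Cdc6 and Cdt1 load the MCM2-7 helicase onto DNA as an inactive double ring, and cyclin-dependent kinase activity later fires these origins. The helicase is then activated by Cdc45 and the GINS complex, polymerase alpha-primase lays primers, and polymerases delta and epsilon extend them on the clamp PCNA. Most of these genes are transcribed in a wave at the G1/S boundary under E2F transcription factors, and in bulk cultures their mRNA levels are widely read as a proliferation signature.

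Since E2F sites are the best known shared control of this family, the sequence before the transcription start was read for 5 members. *Pcna* and *Chaf1b* are shown as the members that passed the main test of genotype. *Mcm5* and *Pola1* are shown as members with several matches, and *Rrm1* as a member of another role with a lone match. All are on GRCm39, run 5′ to 3′ on the gene's strand and end at the base before the start of the Ensembl canonical transcript in GENCODE M39. Capitals mark matches to the E2F letters TTNNCGC on either strand, where each N is C or G, and overlapping matches run together.
*Pcna*, chr2:132095235-132095354, minus strand: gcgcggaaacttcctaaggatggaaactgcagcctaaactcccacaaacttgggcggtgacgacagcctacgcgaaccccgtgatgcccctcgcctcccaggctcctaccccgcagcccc
*Chaf1b*, chr16:93680538-93680767, plus strand: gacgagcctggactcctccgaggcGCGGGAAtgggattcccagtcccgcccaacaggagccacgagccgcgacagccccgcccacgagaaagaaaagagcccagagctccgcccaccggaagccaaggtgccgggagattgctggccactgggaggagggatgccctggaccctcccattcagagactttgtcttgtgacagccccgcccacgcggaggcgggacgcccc
*Mcm5*, chr8:75835940-75836139, plus strand: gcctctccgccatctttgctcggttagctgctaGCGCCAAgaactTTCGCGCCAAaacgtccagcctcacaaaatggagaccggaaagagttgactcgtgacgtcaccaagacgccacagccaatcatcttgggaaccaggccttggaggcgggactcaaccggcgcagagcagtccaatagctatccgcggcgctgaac
*Pola1*, chrX:92675814-92675933, minus strand: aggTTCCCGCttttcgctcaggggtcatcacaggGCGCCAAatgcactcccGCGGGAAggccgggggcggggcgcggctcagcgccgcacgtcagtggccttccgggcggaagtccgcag
*Rrm1*, chr7:102090770-102090889, plus strand: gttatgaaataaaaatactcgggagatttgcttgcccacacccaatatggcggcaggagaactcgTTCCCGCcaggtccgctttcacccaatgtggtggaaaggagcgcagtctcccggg

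In *Chaf1b* the match began 206 bases before the start. In *Mcm5* the 3 matches began 167, 155 and 152 bases before it, the last pair overlapping, and in *Pola1* they began 117, 86 and 69 bases before it. The 120 bases shown for *Pcna* held no match, which says only that these letters are not in this window. Over the window from 250 bases before to 50 bases after the start, 21 of 45 members (46.7%) held at least 1 match, against 11.2% of 21735 protein-coding genes. Of 46 further replication genes that are no members, 32.6% held a match, and of 30 genes of mitosis 10% did. Another short element, the letters TTTGAA on either strand, which form the core of the cell cycle genes homology region found before many mitosis genes, was in 3 of 45 members (6.67%), 50% of the mitosis genes and 17.1% of all. The letters CCAAT on either strand, bound by NF-Y, were in 57.8% of members, 66.7% of mitosis genes and 39.9% of all. These shares are descriptions with no test of their differences, and a match is a string of letters and not a measured binding site. Of the 2 members that passed the main test of genotype, *Chaf1b* held 1 E2F match in the longer window and *Pcna* 0. *Cdt1*, which did not pass it, held 2. Whether matches go with a genotype difference was not tested.

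Total counts were 69764291 to 101575071 in the 8 male-labelled libraries and 12761107 to 20781070 in the 7 female-labelled ones, so depth and sex label cannot be told apart. Each depth held both genotypes. The targeted gene *Slc6a6* had 586 to 2655 CPM (CPM, counts scaled to a library of 1e6 with edgeR's TMM factors; median 1670) in TauT+/+ and 392 to 1571 CPM (median 758) in TauT-/- libraries, which overlapped. Its log2 fold change was -0.94 (SE 0.37, adjusted p = 0.141, edgeR), so its level does not check every label, and the genotype below is always that of the label. Genes of the sex chromosomes went against the sex label in 3 libraries, male TauT+/+ 1, male TauT-/- 1 and female TauT+/+ 3. Male and female TauT+/+ 1, and male and female TauT-/- 1, were close to identical: over the 45 members the median absolute log2 difference was 0.073 and 0.10 within these pairs. Their spread over all genes exceeded counting error, which does not show whether they came from separate cultures or from repeat preparations of the same RNA. All 15 libraries were kept and counted, so the n of each genotype may be too large by 1 and the p-values too small, and the calls of members are given with a lone library per pair as well. Female TauT-/- 4 stood apart in replication, mitosis, stromal, macrophage and some endothelial and neutrophil genes, and the members' results are given with and without it. All 14 stromal markers were detected, with a sum of 27835 to 46855 CPM in TauT+/+ and 6426 to 40631 CPM in TauT-/- libraries. All 18 macrophage markers were detected too, with 1528 to 10235 CPM in TauT+/+ and 7103 to 24794 CPM in TauT-/- libraries. These include *Ptprc*, which encodes CD45, the antigen sorted against (28.6 to 379 CPM). Of the other cell types looked for, *Cdh5*, *Emcn* and *Cldn5* of endothelium, *Hba-a1* and *Klf1* of erythroid cells, and *Cd3e*, *S100a9* and *Mpo* of lymphocytes and neutrophils were below 1 CPM in every library. Other genes of these lists were detected: the endothelial sum was 4.06 to 22.7 CPM in TauT+/+ and 10.1 to 164 CPM in TauT-/- libraries, and DESeq2 called 2 of 8 tested endothelial markers higher (edgeR 0), the receptors *Kdr* and *Flt1*. *Flt1* was highest in female TauT-/- 4 with 124 CPM, as was the neutrophil marker *S100a8* with 51.4 CPM. The part of these in the members' levels was not tested. In bulk samples, fewer cells of a type and less RNA per cell cannot be told apart, and this holds for dividing cells as for any other type.

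Most replication genes had higher estimates in TauT-/- than in TauT+/+ MSCs, but 2 of 45 passed the test. *Pcna*, the sliding clamp, rose 0.65 on the log2 scale, and *Chaf1b*, a subunit of the histone chaperone CAF-1, rose 1.00. Of the 45 log2 fold changes, 42 were above 0 and 3 below (*Pold2*, *Rpa3* and *Rrm2*), with a median of 0.36 and a range of -0.34 to 1.00, beside a median of 0.0049 over all 18263 genes tested. The fit was edgeR's quasi-likelihood test with genotype and sex label as terms, and a gene was called at a Benjamini-Hochberg adjusted p under 0.05. The 2 calls are 4.44% of the members, where 0.564% of all genes were called higher and 0.591% lower. No member was called lower. At an unadjusted p under 0.05, 10 of 45 members (22.2%) were higher, against 11.8% of all genes, and 0 were lower. DESeq2 with the same terms called 6 members higher (13.3%, beside 5.34% of all genes higher and 6.13% lower), *Cdt1*, *Pold1*, *Pcna*, *Rpa2*, *Lig1* and *Chaf1b*, and none lower. The macrophage markers were higher with the same label (18 of 18 estimates above 0, median 0.98). With their mean level as a further term the members' median was 0.16. That fit called no member and 0 of all 18263 genes. The members share their libraries and tend to move together from library to library, so these counts do not stand for 45 separate observations.

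**Figure D1:**
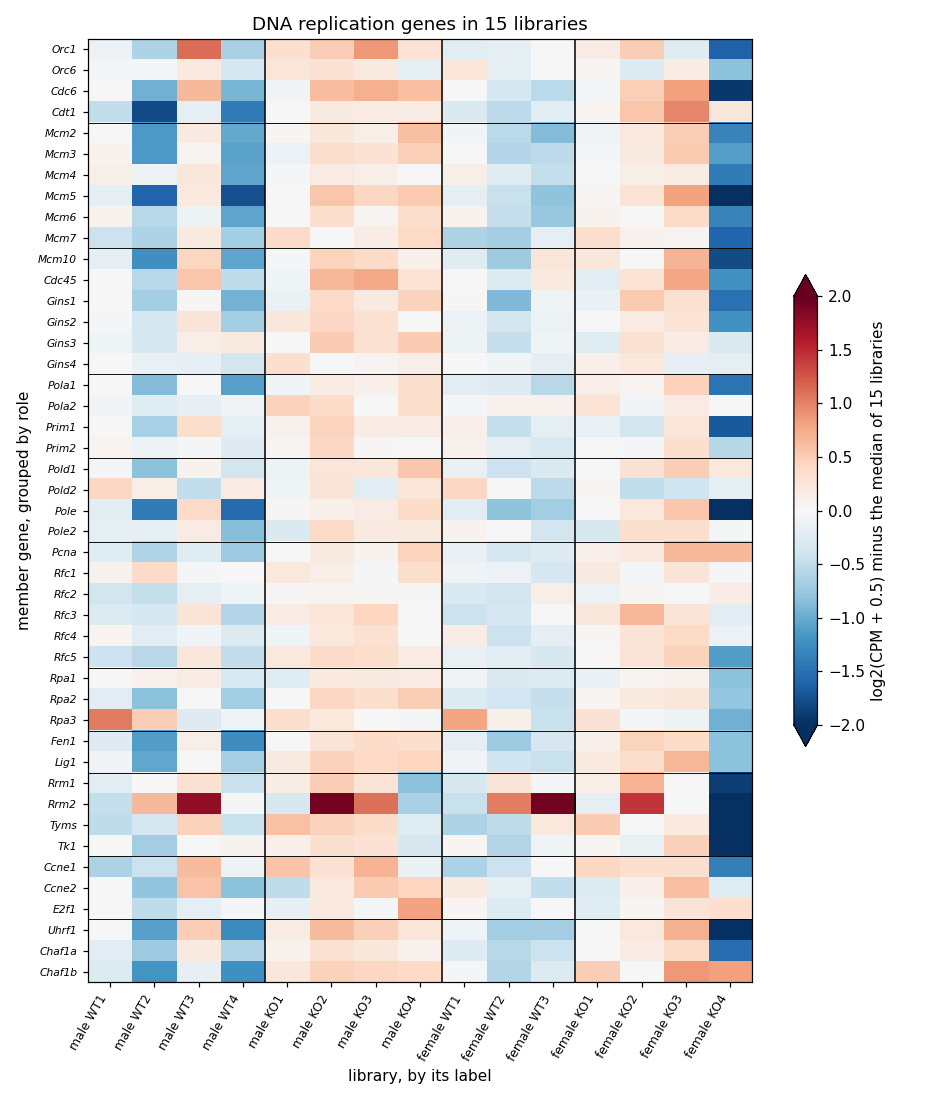
Heat map of the 45 members (rows, grouped by role) in 15 libraries (columns, in the order of the labels), in log2(CPM + 0.5) minus each gene's median over the 15 libraries. Red is above and blue below that median, and the colours are cut at 2 and -2. The column of female KO4 is blue in most rows, male WT2 and male WT4 are blue in many, and *Pcna*, *Cdt1* and *Chaf1b* are red in female KO4.

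*Pcna* forms the ring that tethers polymerase delta and many other proteins to the fork. Its level was 35.5 CPM in the lowest, 49.1 in the median and 53.1 in the highest of the 7 TauT+/+ libraries, and 59.1, 67.5 and 92.8 CPM in the 8 TauT-/- libraries. The genotypes did not overlap, neither in all 15 libraries nor under each sex label. The means were 46.2 ± 6.51 CPM (SD, n = 7) and 73.2 ± 13.7 CPM (SD, n = 8), and the log2 fold change was 0.65 (SE 0.12, adjusted p = 0.0325, edgeR; 0.000105, DESeq2). It was 0.63 under the male label and 0.67 under the female label. The gene lies at chr2:132091082-132095234 on the minus strand, it has the pseudogenes *Pcna-ps1* and *Pcna-ps2*, and the noncoding *AV099323* overlaps it on the other strand. The counting is stated to use strand, but whether the library kit marks strand is not given in the sources used here, so a share of reads from these neighbours cannot be told apart. Of 15 fits with a library removed in turn, 7 lost the call, those without male TauT-/- 1 or 4, male TauT+/+ 2, female TauT-/- 3, or any of the 3 female TauT+/+ libraries. Those 7 fits called 12 to 38 genes of all, where the main fit called 211. The log2 fold change of *Pcna* was 0.58 to 0.69 and the adjusted p 0.0132 to 0.0852 over all 15 fits. When each near-identical pair was represented by a lone library, the log2 fold change was 0.70 in both sets of 13 libraries, with adjusted p of 0.0641 and 0.100.

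*Chaf1b* encodes the middle subunit of CAF-1, which deposits new histones behind the fork and is brought there by PCNA. In TauT+/+ libraries it had 2.94 to 7.40 CPM with a median of 6.15, and in TauT-/- libraries 7.54 to 14.1 CPM with a median of 10.4. The genotypes did not overlap, although the lowest TauT-/- library and the highest TauT+/+ library were close. The log2 fold change was 1.00 (SE 0.21, adjusted p = 0.0416, edgeR; 0.000698, DESeq2), from means of 5.31 ± 1.76 CPM (SD, n = 7) and 10.7 ± 2.22 CPM (SD, n = 8). The gene lies at chr16:93680768-93703003 on the plus strand, with the noncoding *Gm49617* on the same strand. The call of *Chaf1b* held only without male TauT+/+ 1 or 3 or without female TauT-/- 1 or 2. It was lost without any of the other 11 libraries, in fits that called 12 to 195 genes of all. Over all the fits with a library removed, the log2 fold change was 0.88 to 1.08 and the adjusted p 0.0194 to 0.110. In the sets of 13 libraries the adjusted p was 0.0730 and 0.104. *Chaf1a*, which encodes the large subunit, had 14.7 ± 3.41 and 19.4 ± 5.68 CPM and a log2 fold change of 0.41 (SE 0.23, adjusted p = 0.294, edgeR). *Uhrf1*, which reads hemimethylated DNA behind the fork and recruits the maintenance methyltransferase, had 8.78 to 30.9 CPM (median 13.5) in TauT+/+ and 3.39 to 36.0 CPM (median 25.7) in TauT-/- libraries, a log2 fold change of 0.58 (SE 0.38, adjusted p = 0.370, edgeR).

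Among the licensing genes, *Cdt1*, which brings the helicase to the origin, separated the genotypes without passing the edgeR threshold. Its levels were 4.01 to 13.3 CPM (median 10.6) in TauT+/+ and 15.1 to 30.2 CPM (median 17.0) in TauT-/- libraries. The 2 lowest values came from male TauT+/+ 2 and 4. The log2 fold change was 0.93 (SE 0.23, adjusted p = 0.0594, edgeR; 0.00642, DESeq2). Together with *Pcna* and *Chaf1b* it made 3 of 45 members whose lowest TauT-/- value exceeded the highest TauT+/+ value, against 0.783% of all genes tested. *Cdc6*, which works beside *Cdt1*, had a log2 fold change of 0.60 (SE 0.41), *Orc1*, the regulated subunit of the origin recognition complex, 0.29 (SE 0.51), and *Orc6*, its smallest subunit, 0.0034 (SE 0.16). The adjusted p of these 3 was 0.386, 0.760 and 0.993 (edgeR), and the estimate of *Orc6* fell just below 0 with the scaling factors of DESeq2 and with upper-quartile scaling.

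The 6 genes of the MCM2-7 helicase, which are bound in 1 ring in equal numbers, had estimates above 0 but none passed the test. *Mcm5* had 7.38 to 30.1 CPM (median 19.1) in TauT+/+ and 3.55 to 46.0 CPM (median 33.1) in TauT-/- libraries. Of the TauT-/- libraries 5 were above every TauT+/+ library, and 1, female 4, was below them all. Its log2 fold change of 0.77 (SE 0.42, adjusted p = 0.277, edgeR) was the largest of the ring. *Mcm2* had 0.55 (SE 0.27), *Mcm3* 0.53 (SE 0.25), *Mcm7* 0.49 (SE 0.24) and *Mcm6* 0.41 (SE 0.23), with adjusted p between 0.217 and 0.305. *Mcm4* stood at 0.11 (SE 0.23, adjusted p = 0.805), with medians of 31.7 and 35.7 CPM. Reads of *Mcm7* share its locus with the microRNAs *Mir25*, *Mir93* and *Mir106b*, and *Cops6* and *Ap4m1* overlap it on the other strand.

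The genes that turn the loaded ring into a moving helicase, *Mcm10*, *Cdc45* and the 4 GINS genes, had log2 fold changes of 0.20 to 0.50, with a median of 0.33 and none called. *Gins1* had 1.41 to 3.25 CPM (median 2.98) in TauT+/+ and 0.808 to 4.79 CPM (median 3.87) in TauT-/- libraries, and its estimate of 0.50 (SE 0.33, adjusted p = 0.385, edgeR) rested on as few as 15 counts in a library. *Gins4* had a narrower spread, 14.5 to 19.1 CPM against 16.7 to 23.6 CPM, and an estimate of 0.20 (SE 0.099, adjusted p = 0.248). In these genes the genotypes overlapped.

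The estimates of the polymerase genes were mixed by subunit, and the differences between subunits were not tested. *Pold1*, the catalytic subunit of polymerase delta, had 10.9 to 20.6 CPM (median 16.1) in TauT+/+ and 18.3 to 28.9 CPM (median 23.3) in TauT-/- libraries, with 6 of 8 TauT-/- libraries above every TauT+/+ library. Its log2 fold change was 0.52 (SE 0.14, adjusted p = 0.0701, edgeR; 0.0179, DESeq2). Its partner *Pold2*, the accessory subunit, stood at -0.13 (SE 0.17, adjusted p = 0.672), with medians of 13.5 and 11.3 CPM. *Pole*, the catalytic subunit of polymerase epsilon, had 0.59 (SE 0.42, adjusted p = 0.415), and its level in TauT-/- libraries ran from 1.35 to 19.7 CPM. For the priming complex, *Pola1*, the catalytic subunit, had 0.45 (SE 0.26, adjusted p = 0.315), *Pola2* 0.27 (SE 0.11, adjusted p = 0.141), and the primase genes *Prim1* and *Prim2* 0.090 (SE 0.26) and 0.16 (SE 0.14).

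**Figure D2:**
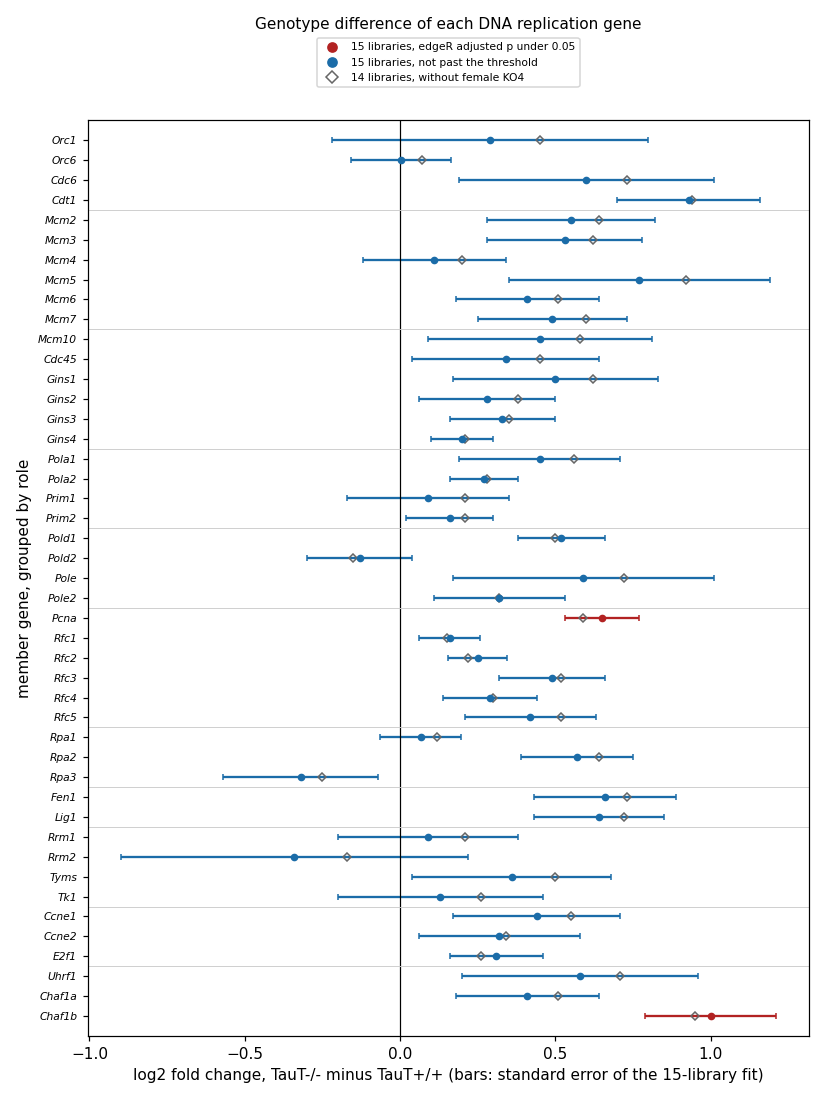
Log2 fold change, TauT-/- minus TauT+/+, of each member, grouped by role; filled points and bars are the estimate and standard error of the 15-library edgeR fit, and open diamonds the estimate without female KO4. *Pcna* and *Chaf1b* (red) passed the adjusted threshold, 42 of 45 points lie right of 0, and the diamonds lie to the right of most points, with a median of 0.50 in place of 0.36.

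The 5 clamp loader genes, *Rfc1* to *Rfc5*, which open the PCNA ring and place it on the primer, had estimates of 0.16 to 0.49, none of them called. *Rfc3* had medians of 6.80 and 10.4 CPM, with a log2 fold change of 0.49 (SE 0.17, adjusted p = 0.108, edgeR). The estimates of the 3 subunits of RPA, which coats single-stranded DNA as a trimer, lay on both sides of 0. Their differences were not tested. *Rpa2* had 6.45 to 11.9 CPM (median 8.89) against 6.73 to 16.8 CPM (median 13.7), a log2 fold change of 0.57 (SE 0.18, adjusted p = 0.0930, edgeR; 0.0365, DESeq2). *Rpa1*, the large subunit, stood at 0.067 (SE 0.13, adjusted p = 0.794), and *Rpa3*, the small one, at -0.32 (SE 0.25, adjusted p = 0.448). *Rpa3* was highest in the near-identical libraries male and female TauT+/+ 1.

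*Fen1*, which trims the flap of each lagging strand piece, and *Lig1*, which seals it, had close estimates. *Lig1* had 11.7 to 24.5 CPM (median 18.5) in TauT+/+ and 13.7 to 39.3 CPM (median 31.6) in TauT-/- libraries, and 7 of 8 TauT-/- libraries lay above every TauT+/+ library. Its log2 fold change was 0.64 (SE 0.21, adjusted p = 0.0981, edgeR; 0.0477, DESeq2). *Fen1* had 0.66 (SE 0.23, adjusted p = 0.119, edgeR; 0.0724, DESeq2), with medians of 13.7 and 21.5 CPM. In both genes the lowest TauT-/- library was female 4.

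The 4 nucleotide supply genes had estimates of -0.34 to 0.36, and none was called. *Rrm1* and *Rrm2* encode the large and small subunits of ribonucleotide reductase, *Tyms* makes thymidylate, and *Tk1* salvages thymidine. *Rrm2* had 36.2 to 196 CPM (median 80.1) in TauT+/+ and 11.1 to 194 CPM (median 47.5) in TauT-/- libraries, a 17.6-fold range over all 15. The range was 5.41-fold within TauT+/+ and 17.5-fold within TauT-/- libraries. Without female TauT-/- 4, which had the lowest value, the TauT-/- range was 6.05-fold. The log2 fold change of *Rrm2*, -0.34, had an SE of 0.56 (adjusted p = 0.747, edgeR). *Rrm1*, with 122 ± 23.8 CPM (SD, n = 7) and 129 ± 54.4 CPM (SD, n = 8), stood at 0.089 (SE 0.29, adjusted p = 0.884), *Tk1* at 0.13 (SE 0.33, adjusted p = 0.848) and *Tyms* at 0.36 (SE 0.32, adjusted p = 0.515). The log2 ratio of *Rrm2* to *Rrm1* counts within a library had means of -0.60 ± 0.81 (SD, n = 7) for TauT+/+ and -1.04 ± 0.68 (SD, n = 8) for TauT-/-, a difference of -0.43 (two-sided exact permutation within sex labels, p = 0.293, adjusted over 3 ratios 0.439).

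Of the genes that govern entry into S phase, *E2f1*, an activating E2F factor, had 24.3 to 35.6 CPM (median 34.2) in TauT+/+ and 29.3 to 61.0 CPM (median 37.7) in TauT-/- libraries. Its estimate was 0.31 (SE 0.15, adjusted p = 0.229, edgeR). The cyclin E genes *Ccne1* and *Ccne2*, whose products activate Cdk2 at this step, had 0.44 (SE 0.27, adjusted p = 0.338) and 0.32 (SE 0.26, adjusted p = 0.468). Their log2 ratio, *Ccne2* over *Ccne1*, was -0.69 ± 0.61 (SD, n = 7) and -0.72 ± 0.73 (SD, n = 8), a difference of -0.055 (exact permutation, p = 0.877, adjusted 0.877). The log2 ratio of *Cdt1* to *Gmnn*, the gene of its inhibitor geminin, was 0.20 ± 0.41 (SD, n = 7) and 0.49 ± 0.17 (SD, n = 8), and 7 of 8 TauT-/- libraries were above the TauT+/+ median. That difference of 0.26 did not pass (exact permutation, p = 0.0743, adjusted 0.223), while *Gmnn* itself had a log2 fold change of 0.72 (SE 0.21, adjusted p = 0.0766, edgeR).

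**Figure D3:**
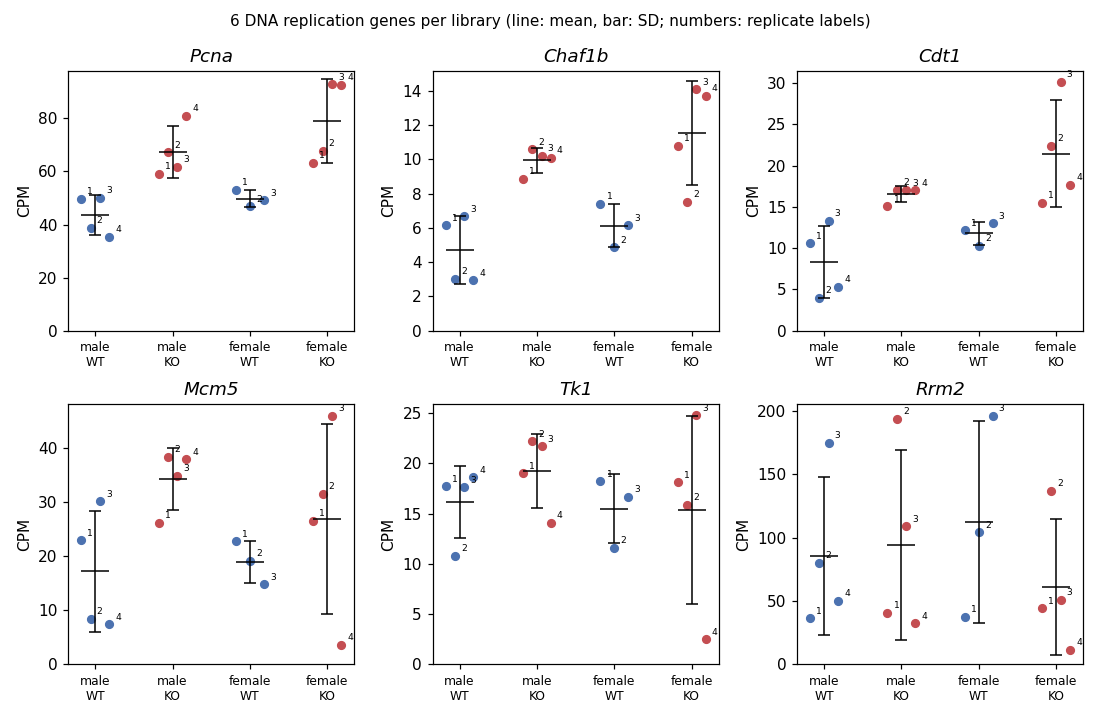
CPM of 6 members in each library by genotype and sex label, with the mean (line) and SD (bar) of each group and the replicate number beside each point. *Pcna*, *Chaf1b* and *Cdt1* separate TauT-/- (red) from TauT+/+ (blue) under both labels, *Mcm5* and *Tk1* drop to 3.55 and 2.48 CPM in female KO4, and *Rrm2* spans 11.1 to 196 CPM with both genotypes mixed.

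The library female TauT-/- 4 stood apart from the rest. It was the lowest of all 15 libraries in 26 of 45 members and below the other 7 TauT-/- libraries in 35, and the median member lay 1.09 log2 units below its own 15-library median. *Pole* was at 1.35 CPM beside a median of 14.9 CPM in the other TauT-/- libraries (9.01%), *Mcm5* at 3.55 beside 34.8 CPM (10.2%), *Tk1* at 2.48 beside 19.0 CPM, *Uhrf1* at 3.39 beside 26.0 CPM and *Tyms* at 2.21 beside 13.4 CPM (16.4%). *Orc1* had 1 count there. Yet 5 members were above the median of the other TauT-/- libraries in the same library. *Pcna* stood at 92.7 CPM (138%), *Chaf1b* at 13.7 CPM (134%), *E2f1* at 43.8 CPM (123%), *Rfc2* at 28.8 CPM (110%) and *Cdt1* at 17.7 CPM (104%), and *Pold1* was at 97.2% of that median. All 30 mitosis genes were below the other TauT-/- libraries in it, with a median 2.34 log2 units under their 15-library medians. The same library had the most macrophage marker signal of the 15 (24794 CPM) and the least stromal marker signal (6426 CPM). The part of these in the members' levels was not tested.

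Without this library, left out after its values were seen, the median member had a log2 fold change of 0.50 in place of 0.36, and 42 were again above 0. At an unadjusted p under 0.05, 25 of 45 members (55.6%) were then higher, against 10.3% of all genes, but only *Pcna* was called (0.59, adjusted p = 0.0468, edgeR), where 0.204% of all genes were called higher and 0.243% lower. *Chaf1b* had 0.95 (adjusted p = 0.0635). *Lig1* joined the members without overlap, which made 4, against 0.931% of all genes. At the other end, male TauT+/+ 3 had 29 of 45 members above the 15-library median, where the other 6 TauT+/+ libraries had 3 to 14. Without it, 5 members were called higher, *Cdt1*, *Pold1*, *Pcna*, *Rfc3* and *Chaf1b*, and the median was 0.48, but that fit called 2.79% of all genes higher and 4.55% lower. The TauT-/- libraries other than female 4 had 23 to 43 members above the median. Other removals lowered the estimates. Male TauT+/+ 2 and 4 were the lowest of the 15 libraries in 8 and 7 members. Without male TauT+/+ 2 the median log2 fold change was 0.28, with 5 members below 0. Without male TauT+/+ 4 it was 0.30, with 6 below 0.

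**Figure D4:**
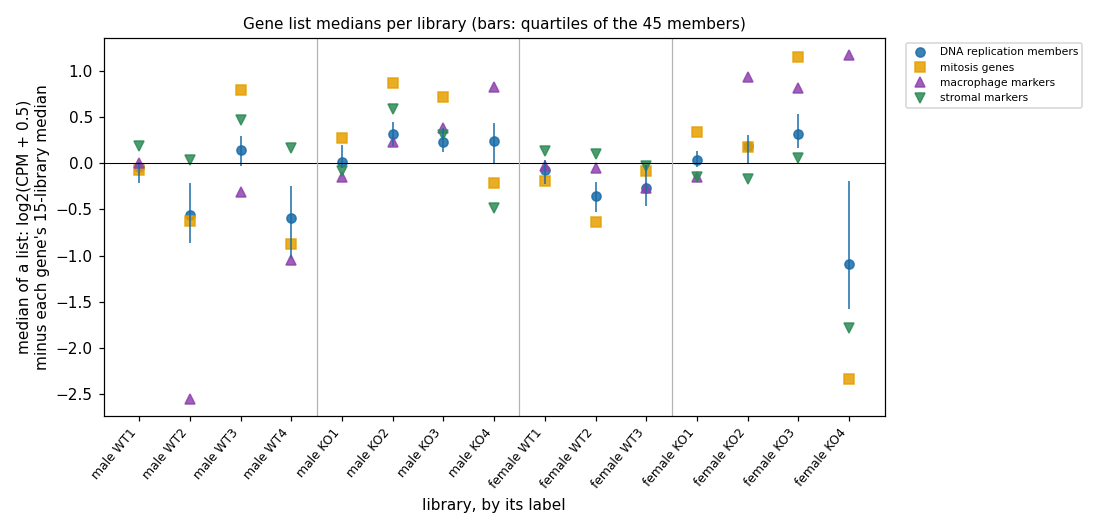
Median of each gene list in each library, as log2(CPM + 0.5) minus each gene's 15-library median; the bars are the quartiles of the 45 members. Members (blue circles) lie between 0.017 and 0.32 in 7 TauT-/- libraries and at -1.09 in female KO4, while the macrophage list (purple) is highest there at 1.17 and lowest in male WT2 at -2.55.

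The macrophage markers moved with genotype as well. All 18 had estimates above 0, with a median log2 fold change of 0.98, and *Cd68* (1.50, adjusted p = 0.0432) and *Ctss* (2.11, adjusted p = 0.0454), a lysosomal membrane protein and a lysosomal protease, were called. Both calls were lost without any of 12 of the libraries, with adjusted p up to 0.110 and 0.120, and held without male TauT+/+ 3 or female TauT-/- 1. In both sets of 13 libraries 0 macrophage markers were called (edgeR; 15 of 18 at an unadjusted p under 0.05 in each). DESeq2 on all 15 called 9 of the 18. The 14 stromal markers had a median of -0.43, with none called by edgeR and 3 called lower by DESeq2. With the macrophage term, 37 of 45 member estimates were above 0, and 0 members were called (edgeR). At an unadjusted p under 0.05, 3 members (6.67%) were higher, against 4.50% of all genes. The estimate was 0.43 for *Pcna* (adjusted p = 0.324), 0.64 for *Chaf1b* (adjusted p = 0.384) and 0.39 for *Cdt1* (adjusted p = 0.540). With that term 0 of all 18263 genes were called. Which cells the replication transcripts came from was not tested.

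By exon length, the most abundant members were *Rrm2* and *Pcna*, with means of 26.0 and 25.2 CPM per kilobase over the 15 libraries, followed by *Rrm1* (10.7), *E2f1* (10.4), *Rpa3* (9.98) and *Mcm6* (9.50). The order of the first pair means little beside the 17.6-fold range of *Rrm2*. The lowest were *Orc1* (0.237), *Mcm10* (0.581), *Pola1* (0.740) and *Cdc6* (0.766). The spread between libraries of a group, as edgeR's biological coefficient of variation (the relative SD beyond counting error), had a median of 0.331 over the members, 0.362 over all genes and 0.279 over the genes within the members' range of CPM. It was smallest for *Rfc1* (0.176), *Rfc2* (0.178), *Gins4* (0.185), *Pola2* (0.190) and *Pcna* (0.196), and largest for *Rrm2* (0.720), *Orc1* (0.652), *Pole* (0.562), *Mcm5* (0.552) and *Cdc6* (0.551). In *Orc1*, *Pole*, *Mcm5* and *Cdc6*, female TauT-/- 4 was at 3.30%, 9.01%, 10.2% and 10.5% of the median of the other TauT-/- libraries. *Pcna* thus combined a fold change above the members' median with a spread near the smallest, whereas *Mcm5* had the larger fold change of the 2, a wider spread and no call. Without female TauT-/- 4, *Mcm5* had a log2 fold change of 0.92 with an SE of 0.29 in place of 0.42, and again no call (adjusted p = 0.106, edgeR).

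Under the male label alone the median member had a log2 fold change of 0.49 and 43 of 45 were above 0. Under the female label the median was 0.25 with 38 above 0. No member was called within either label (edgeR, 0% of all genes). At an unadjusted p under 0.05, 9 members (20.0%) were higher under the male label, against 4.51% of all genes, and 4 (8.89%) under the female label, against 8.03%. DESeq2 called 0 members under the male label (0.203% of all genes higher) and 1 under the female label (1.18%). The difference of the genotype effect between labels was called for no member with edgeR (0% of all genes) or DESeq2. At an unadjusted p under 0.05 edgeR had 0 members. The female effect was lower in 40 of 45. The female-label estimates include female TauT-/- 4, whose median member lay at -1.09 log2 units from the 15-library medians. The other female TauT-/- libraries lay at 0.032, 0.18 and 0.32, and the male ones at 0.017 to 0.32. The part of female TauT-/- 4 in the difference between labels was not tested. Between the labels themselves, 38 of 45 members were lower in female-labelled libraries with a median of -0.14, and 0 were called (edgeR, 0 at an unadjusted p under 0.05; 0 with DESeq2; 0.0164% of all genes).

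Other genes of the pathway, listed separately and read in the same libraries, also had mostly higher estimates. Of 46 further replication genes 35 had estimates above 0 and 11 below, with a median of 0.25. At an unadjusted p under 0.05 (edgeR), 15 (32.6%) were higher, against 11.8% of all genes, and 2 were lower. The 2 lower genes were *Samhd1* (-0.84) and *Rrm2b* (-0.37). After adjustment 2 genes were called higher (4.35%, beside 0.564% of all genes) and none lower. *Rnaseh2c*, a subunit of the ribonuclease that removes ribonucleotides from DNA, rose from 10.3 to 15.3 CPM (median 14.3) in TauT+/+ to 18.7 to 29.9 CPM (median 22.1) in TauT-/- libraries, without overlap (log2 fold change 0.79, SE 0.12, adjusted p = 0.0151, edgeR). *Dnmt1*, the maintenance DNA methyltransferase that acts with *Uhrf1*, rose from a median of 50.8 to one of 83.1 CPM (0.68, SE 0.15, adjusted p = 0.0436). Among 24 regulators of G1/S and E2F, 21 were above 0 with a median of 0.16, and *E2f2*, an activating E2F like *E2f1*, was called, with 1.44 to 8.27 CPM (median 5.09) against 7.86 to 22.0 CPM (median 16.5; 1.64, SE 0.36, adjusted p = 0.0432). With each library left out in turn, *Rnaseh2c* lost its call only without female TauT+/+ 1 (adjusted p up to 0.0618). *Dnmt1* and *E2f2* kept theirs only without male TauT+/+ 3 or female TauT-/- 1, with adjusted p up to 0.120 and 0.114 without the others, and all 3 lost it in the sets of 13 libraries. Of 8 genes of CDK inhibitors, which hold back entry into S phase, 7 had estimates above 0, with a median of 0.15. None was called by edgeR. DESeq2 called 1 higher (12.5%, beside 5.34% of all genes). The number of CDK inhibitor estimates above 0 was 5 with DESeq2 and 5 in each set of 13 libraries. It was 4 in the 12 libraries whose sex-linked genes matched the label. *Cdkn1b* had -0.60 (SE 0.24, adjusted p = 0.153) and *Cdkn2d* 0.49 (SE 0.17, adjusted p = 0.109).

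The 30 mitosis genes, which act after replication, were all above 0 with a median of 0.55, larger than the members' 0.36. With edgeR 0 were called, beside 0.564% of all genes called higher. At an unadjusted p under 0.05, 2 (6.67%) were higher, against 11.8% of all genes. DESeq2 called 1 (3.33%, beside 5.34% of all genes higher). Without female TauT-/- 4 their median was 0.68 and 0 were called. Then 16 of 30 (53.3%) were higher at an unadjusted p under 0.05, against 10.3% of all genes. Their median coefficient of variation was 0.572, against 0.331 for the members. *Incenp*, of the chromosomal passenger complex, came closest, with 20.9 to 42.3 CPM (median 30.8) and 38.9 to 69.7 CPM (median 49.5; 0.69, SE 0.16, adjusted p = 0.0536), and *Cdca8* of the same complex had 0.80 (SE 0.34, adjusted p = 0.178). In female TauT-/- 4 the median of the mitosis list was at -2.34 and that of the members at -1.09, in log2 units from the 15-library medians, and no mitosis gene kept the level of the other TauT-/- libraries as *Pcna* and *Chaf1b* did. Whether the lists differ beyond what these libraries share was not tested.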

How the data were processed

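RNA was made into full-length cDNA from poly(A) tails and sequenced as paired reads. According to the study's methods and processing notes, the authors filtered reads with fastp 0.23.1, mapped them with STAR 2.7.9a to GRCm39 with GENCODE M31 and counted them by strand with featureCounts (Subread 2.0.1). The deposited table holds these counts as whole numbers without scaling, for 56832 genes in 15 libraries, and every column matched 1 library by name. Full-length counts rise with transcript length, so levels of different genes were ranked only per kilobase of exon.

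The main test was that of edgeR 4.0.16 under R 4.3.3 (TMM, filterByExpr by group, quasi-likelihood test, terms for labelled sex and genotype) over 18263 genes, with Benjamini-Hochberg adjustment over all of them. DESeq2 1.42.0 and limma 3.58.1 (voom with sample quality weights) were alternatives. Contrasts within and between sex labels used 1 term per group. Ratios used counts plus 0.5 and an exact permutation over 2450 arrangements of genotype within sex labels. The statistics were tested on simulated data. Positions and exon lengths come from GENCODE M39, a later annotation of the authors' build, and promoter windows were read from the GRCm39 genome. Alternatives were another scaling, filter or tool, other terms, each sex label alone, sets of 13 and 12 libraries, and leaving out each library in turn. 2 alternatives (the filter by design matrix, and the macrophage term without female TauT-/- 4) were chosen after seeing the data.

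The members and lists were chosen with earlier results of these data known. Members named with values were *Mcm2* to *Mcm7*, those past the threshold, the 8 with the smallest p, in each role those with the highest CPM and the largest fold change, and the genes of the ratios; others are named after their values were seen. From other lists, genes past the threshold were named, or else the 2 with the smallest p.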

Additional observations from a re-analysis of the deposited data

Results flagged for a closer look

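Of 84 groups of 4 libraries tested for a lone extreme value (28 genes in 3 groups), 4 gave one, and chance gives about 1 in 20, here 4.20. Each value is the extreme library's distance from its neighbour as a share of the group's range. *Cdt1* was low in male TauT-/- 1 (0.938, 15.1 CPM), in a group whose other values were 17.0 to 17.1 CPM. *Rpa1* was low in the same library (0.916, 44.9 CPM). *Tyms* was high in male TauT+/+ 3 (0.867, 14.3 CPM). *Ccne1* was low in female TauT-/- 4 (0.907, 4.42 CPM).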

How the results depend on the processing

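The median log2 fold change of the members stayed above 0 under every alternative run (0.16 to 0.54), and no member was called lower in any. The number called higher, 2 in the main analysis, was 6 with DESeq2, 9 with voom, 1 with no filter on low counts, and 0 with either set of 13 libraries, with the 12 libraries whose sex-linked genes matched the label, with the male or the female label alone, and with the macrophage term, with or without female TauT-/- 4. It was 0 to 5 over the fits that left out 1 library each. It was 0 without male TauT+/+ 2, male TauT-/- 1 or 4, any female TauT+/+ library or female TauT-/- 3, it was 1 without male TauT+/+ 4, male TauT-/- 2 or 3 or female TauT-/- 4, and it was 5 without male TauT+/+ 3. Within the female label DESeq2 called 1. The cause of these changes was not tested, beyond the smaller number of libraries where some were left out. Over all genes, 211 calls in the main analysis became 2096 with DESeq2, 1194 with voom and 74 with no filter on low counts. They became 2 without the male-labelled and 7 without the female-labelled libraries of the near-identical pairs. With the 12 libraries, with either label alone and with the macrophage term, 0 genes of all were called. Over the fits that left out 1 library each, 12 to 1236 genes were called.

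Same-numbered libraries deviated together under the male label (r = 0.19 to 0.61, each library closest to its own number) but not under the female label (-0.048 to 0.26), so the numbers do not establish pairs. With the replicate number as a block, 0 members were called, 28 (62.2%, against 13.1% of all genes) were higher at an unadjusted p under 0.05, and the median was 0.54. *Pcna* then had 0.61 (adjusted p = 0.0591) and *Chaf1b* 1.01 (adjusted p = 0.0553), so the block ended both calls.

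The log2 fold change of *Slc6a6* was called with voom (-1.21, adjusted p = 0.0317). The difference in the *Ccne2* to *Ccne1* ratio turned to 0.21 and 0.17 in the sets of 13 libraries and ran from -0.21 to 0.10 with 1 library left out. That in *Cdt1* to *Gmnn* was 0.20 to 0.35 with 1 library left out, with an unadjusted p of 0.0278 and 0.0143 without male or female TauT+/+ 3. Among the members named by rule, the estimates that turned, none of them called, were *Mcm4* (-0.0019) and *Rrm1* (-0.021) with the female label alone, *Rrm2* (0.13) with the male label alone, and *Ccne2* (-0.20) and *E2f1* (-0.017) with the macrophage term, or -0.19 and -0.039 without female TauT-/- 4 as well. With 1 library left out, *Mcm4* ran from -0.032 to 0.20, *Rpa1* from -0.0055 to 0.12 and *Rrm1* from -0.048 to 0.21. Of the other members, *Orc6*, *Orc1*, *Cdc45*, *Prim1* and *Tk1* turned in some alternatives, and 2 to 8 members were below 0 in each. Of 837 alternatives of single genes, 778 kept their direction and side of the threshold. Low counts limit *Orc1*, *Cdc6* and *Gins1* most, with 1, 12 and 15 counts in their lowest library. That library was female TauT-/- 4 for all of them, and it was the deepest of the female-labelled libraries (20781070 counts).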
